A study of Ovis aries with 12 samples.

Results

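Transcripts of 10 genes that encode proteins of tight and adherens junctions were followed in cultured epithelium of the sheep oviduct. The genes were chosen by name and were CLDN1, CLDN3, CLDN4, CLDN7, OCLN, TJP1, F11R, CDH1, CTNNB1 and EPCAM. All 10 had a row among the 18340 genes of the deposited gene table, each with 1 annotated transcript, and all 10 passed the filter on low values.

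The cells were epithelium of the ampulla of Ovis aries, taken off the opened tube with trypsin and scraping. Every culture, the one taken at 0 h included, had been kept for 12 h in medium free of serum and of phenol red. Oestradiol (E2), the main ovarian oestrogen, was then given at 1e-08 M, and RNA was sequenced after 0 h (T0), 1.5 h (T1), 3.5 h (T2) and 5.5 h (T3), with 3 libraries per time and 12 in all. No cultures left without E2 beyond 0 h were analysed here, so that hormone and culture time cannot be told apart in any difference from 0 h. Each library also carries a number (1, 2 or 3) in its label, with 1 library of each number at every time. What the number stands for is not given in the sources used here. Nor is it stated that libraries of a time came from different animals or cultures, and every p-value below therefore describes the spread among these samples alone, which can be technical.

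Epithelial cells are held together near their luminal face by the tight junction and, just below it, by the adherens junction. In the tight junction, claudins form the strands that seal the space between cells and set which ions pass, occludin lies in the same strands, and ZO proteins tie them to actin. The adherens junction rests on E-cadherin, whose tail binds beta-catenin and through it alpha-catenin and actin. In the oviduct this layer separates the fluid in which gametes and early embryos travel from the tissue beneath.

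Total counts in genes lay between 48490974 and 79387070 per library, and 3 counts, taken as the floor of detection for counting error only, came to 0.0378 to 0.0619 CPM (counts scaled to the library's TMM-corrected total). The labelled cell type was checked against 7 marker lists. General epithelial markers (7 of 8 listed genes in the table) summed to 12590 to 17240 CPM. Secretory markers summed to 243 to 393 CPM and ciliated markers to 15.9 to 44.8 CPM, with FOXJ1, the regulator of motile cilia, at 0 to 0.25 CPM. Fibroblast markers summed to 31370 to 67520 CPM, of which FN1 alone made up 29890 to 64780 CPM and VIM 1163 to 2710 CPM. Without FN1 the other 9 summed to 1180 to 2802 CPM, and without FN1 and VIM the other 8 summed to 16.8 to 138.5 CPM. Smooth muscle markers summed to 427 to 2450 CPM, endothelial markers to 67.6 to 221.7 CPM and immune markers to 19.4 to 33.8 CPM. PECAM1 (endothelium) and PTPRC (leukocytes) did not exceed 0.54 CPM in any library, while the endothelial genes VWF and CDH5 were at 44.9 to 137 CPM and 20.5 to 80.3 CPM. Over all genes the number 3 libraries of 0, 3.5 and 5.5 h stood apart from the other 9, on a first principal component with 44.1% of the variance. In RNA from whole cultures, fewer cells of a type and less RNA per cell cannot be told apart.

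The 10 transcripts spanned a wide range of levels. In FPKM, which scales for transcript length, EPCAM stood highest and CLDN3 lowest, and 8 of the 9 claudin, cadherin and scaffold transcripts below EPCAM lay above 40 FPKM. The coordinates that follow are those of the authors' tables, whose genome build is not given in the sources used here.

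EPCAM, an adhesion molecule of epithelia that binds claudin-7, averaged 745.9 ± 192.5 FPKM over the 12 libraries (SD, n = 12). It lies on the minus strand of chromosome 3 from 76934724 to 76942496, in 9 exons. CDH1, which encodes E-cadherin, averaged 463.2 ± 40.7 FPKM and lies on the plus strand of chromosome 14 from 35389858 to 35459641, in 16 exons. CTNNB1, which encodes beta-catenin, a link in the cadherin complex and also a transcriptional coactivator of Wnt signalling, averaged 311.8 ± 19.0 FPKM. Its 14 exons span 13776448 to 13789287 on the plus strand of chromosome 19. These 3 adherens and adhesion transcripts were all among the 4 highest of the set.

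Among the claudins, CLDN7, whose protein binds EPCAM and lines the basolateral membrane as well as the junction, averaged 343.4 ± 21.6 FPKM. It lies on the minus strand of chromosome 11 from 26601004 to 26602523, in 4 exons. CLDN1, a sealing claudin, averaged 273.0 ± 60.8 FPKM and occupies 195280159 to 195295348 on the plus strand of chromosome 1, in 4 exons. CLDN4, another sealing claudin and a receptor for the enterotoxin of Clostridium perfringens, averaged 164.7 ± 46.8 FPKM. It has a single exon on the minus strand of chromosome 24, from 33401505 to 33402010. CLDN3, also a receptor for that toxin, averaged 3.85 ± 0.898 FPKM with 118 to 241 counts per library. Its single exon lies on the plus strand of chromosome 24 from 33431928 to 33432587. CLDN4 and CLDN3 are thus 29.9 kb apart, and the FPKM of CLDN4 was 17.3 to 66.9 times that of CLDN3 in the same library, with a median of 46.6.

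F11R, which encodes the junctional adhesion molecule JAM-A, averaged 270.9 ± 22.2 FPKM and lies on the minus strand of chromosome 1 from 110565377 to 110586833, in 10 exons. TJP1, which encodes the scaffold ZO-1, averaged 81.4 ± 6.28 FPKM and has 28 exons on the minus strand of chromosome 18, from 27453888 to 27703839. OCLN, which encodes occludin, averaged 43.7 ± 4.37 FPKM and has 8 exons on the minus strand of chromosome 16, from 10211260 to 10251194. OCLN overlaps 2 other annotated rows, which held at most 5 counts in any library, and the other 9 genes overlap none.

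The order of the mean levels was EPCAM, CDH1, CLDN7, CTNNB1, CLDN1, F11R, CLDN4, TJP1, OCLN and CLDN3. Neighbours kept this order in 12 of 12 libraries for 7 of the 9 neighbouring pairs. The place of CLDN1 went with the label number: CLDN1 exceeded both CTNNB1 and F11R in the 4 number 3 libraries and lay below both in the 8 others. CTNNB1 exceeded F11R in 11 of 12 libraries. CLDN7 exceeded CTNNB1 in 12 of 12 libraries, but by as little as 1.01 times.

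The claudins of these cells were mainly of 4 kinds. Of 17 claudin rows in the table, 9 averaged at least 1 FPKM. CLDN7 made up 34.8% of the summed claudin FPKM (33.1% to 36.6% over the libraries), CLDN1 27.5% (22.2% to 38%), CLDN6 18.6% (16.5% to 21.2%) and CLDN4 16.8% (8.32% to 23.3%). CLDN6, a claudin known mostly from embryonic epithelium, is not one of the 10 genes and is named because its share was seen to be large. CLDN12 followed with 0.98% and CLDN3 with 0.389%. CLDN7 thus held the steadiest share of these claudins, and CLDN1 and CLDN4 had the widest ranges.

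**Figure D1:**
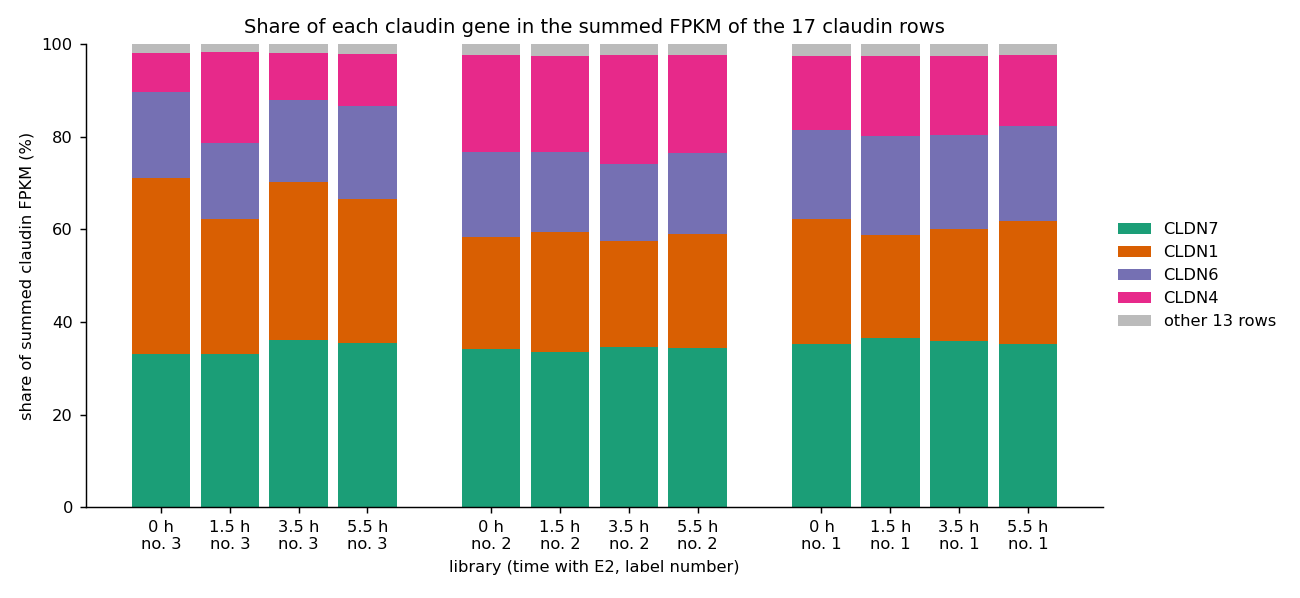
Each bar is 1 library, labelled by its time with E2 and its number, and the coloured parts are the shares of single claudin genes in the summed FPKM of the 17 claudin rows (percent). CLDN7 takes 33.1% to 36.6% in all 12 libraries, while CLDN4 reaches its lowest share of 8.32% in the number 3 library of 0 h.

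In the other junction families 1 gene often led. CDH1 made up 95.7% of the summed FPKM of CDH1, CDH2, CDH3 and CDH4, and F11R made up 98.7% of that of the 3 JAM rows. TJP1 took 53.2% of the 3 ZO transcripts. OCLN took 60% of the occludin family, whose other members are the MARVEL-domain proteins of the same strands. Among the catenins CTNNA1, which encodes alpha-catenin, was first with 49.6%, ahead of CTNNB1 with 32.3%. CDH3, the P-cadherin gene 33.2 kb from CDH1 on the same strand, stood 42.7 to 73.8 times lower than CDH1.

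**Figure D2:**
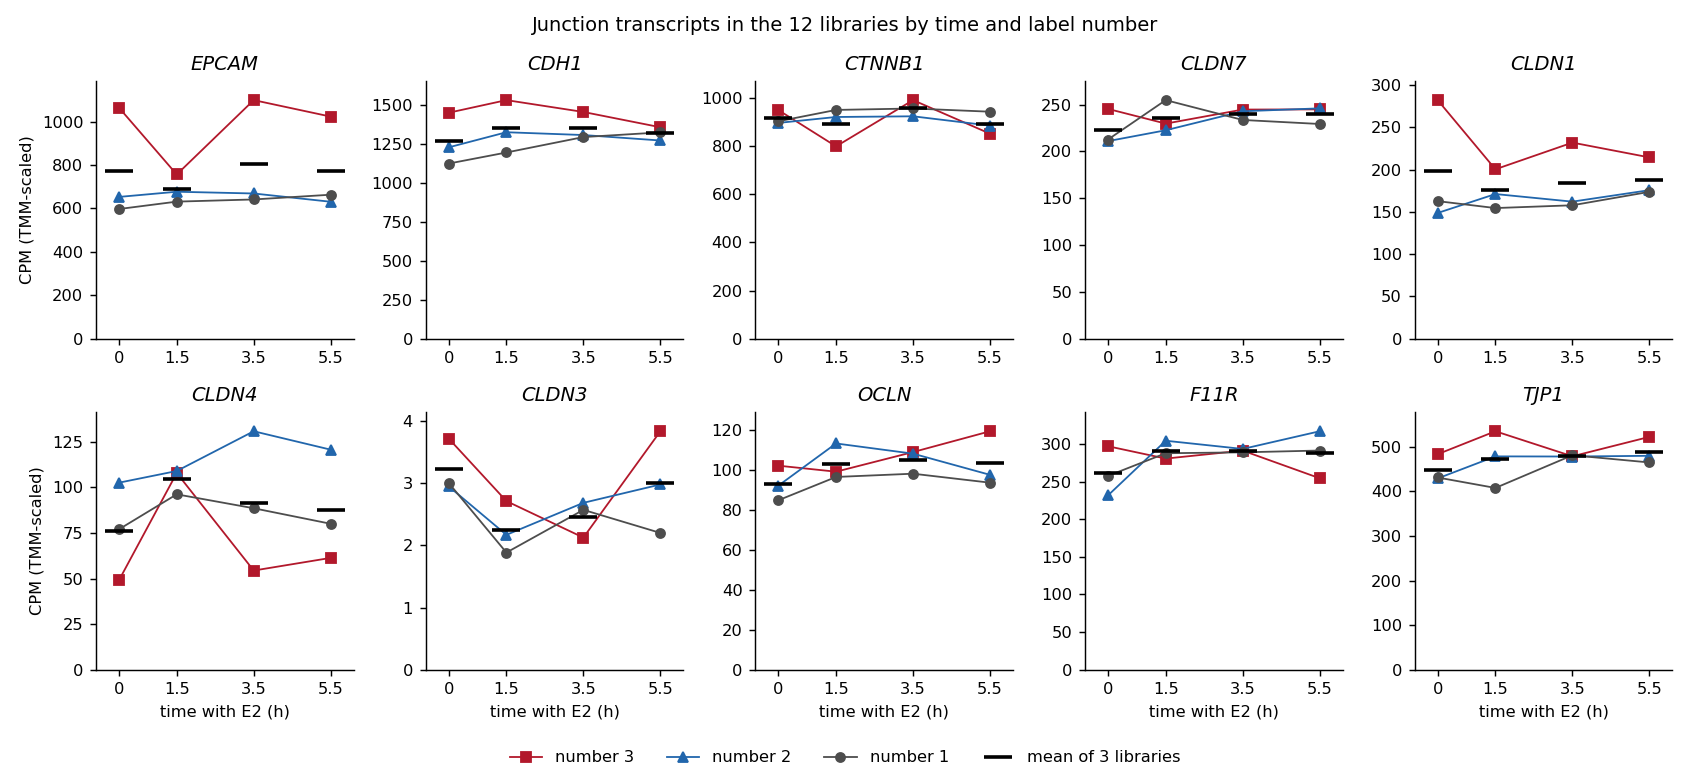
One panel per gene shows the level in each of the 12 libraries (vertical axis, CPM after TMM scaling, from 0) against time with E2 (horizontal axis, hours), with 1 coloured line per label number and a black bar at the mean of 3 libraries. The number 3 line of EPCAM runs at 1023 to 1099 CPM except at 1.5 h, where it is at 756 CPM, while the lines of CLDN7 and CTNNB1 stay close together.

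The first comparison asked whether junction transcripts differed from 0 h after 1.5, 3.5 or 5.5 h of E2. None of the 10 genes passed the test at any time (edgeR quasi-likelihood test on counts with Benjamini-Hochberg adjustment over 12025 genes, adjusted p = 0.9999 for each). The background was equally low: 0% of all tested genes were called at each time, against 287 genes at 1.5 h, 260 at 3.5 h and 252 at 5.5 h with an unadjusted p under 0.05, none of them among the 10. DESeq2 called 0 of the 10 at each time too, and the authors' deposited table gives a q-value of 1 for all 10 at all 3 times. The estimates pointed up for 6 of 10 genes at 1.5 h, for 8 of 10 at 3.5 h and for 7 of 10 at 5.5 h, with medians of 0.08, 0.10 and 0.08 on the log2 scale. Over all tested genes 50.4%, 51.1% and 52.2% pointed up, with medians of 0.00, 0.00 and 0.01.

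CLDN4 had the largest positive estimates. At 0, 1.5, 3.5 and 5.5 h it stood at 77.05, 96.2, 88.6 and 80.1 CPM in number 1 libraries. Number 2 libraries had 102.6, 109, 130.8 and 120.7 CPM of CLDN4 at the same times. Number 3 libraries had 49.1, 107.9, 54.4 and 61.4 CPM. Set against the 0 h library of the same number, CLDN4 was thus higher in 9 of 9 later libraries, as were 3.09% of all tested genes, and the groups of 3 overlapped with 0 h at each time. The estimated difference at 1.5 h was 0.45 ± 0.34 (log2 ± SE, 95% interval -0.30 to 1.21), and at 3.5 and 5.5 h it was 0.26 and 0.20. With the label number as a block it was 0.55 ± 0.19 at 1.5 h (interval 0.11 to 0.98, adjusted p = 0.489 in edgeR, background 0.00832%), the smallest adjusted p of the 10 genes at any time. The number 3 library of 1.5 h, in which CLDN4 exceeded its 0 h partner by the widest margin, differed from the other number 3 libraries in many transcripts, as described further on.

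CLDN3 had the largest negative estimates. Its levels at 0 h were 3.005, 2.95 and 3.72 CPM in numbers 1, 2 and 3. They were 1.885, 2.17 and 2.71 CPM at 1.5 h, and 2.57, 2.685 and 2.13 CPM at 3.5 h. At 5.5 h they were 2.20, 2.98 and 3.84 CPM. All 3 libraries of 1.5 h and all 3 of 3.5 h lay below the lowest library of 0 h, a separation without overlap that 8.32% and 6.76% of all tested genes also showed, and the 5.5 h libraries overlapped those of 0 h. The estimates were -0.51 ± 0.26 at 1.5 h (interval -1.08 to 0.05), -0.39 ± 0.26 at 3.5 h and -0.10 ± 0.26 at 5.5 h. With the number as a block the 1.5 h value was -0.52 ± 0.23 (interval -1.04 to -0.0026, adjusted p = 0.506 in edgeR). Within numbers CLDN3 was lower than at 0 h in 7 of 9 later libraries, and 19.9% of all tested genes were lower in 7 or more.

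The remaining tight junction transcripts had smaller estimates. OCLN ranged from 84.7 to 119.2 CPM and was higher than its 0 h partner in 8 of 9 later libraries, as were 9.95% of all tested genes in 8 or more, with estimates of 0.15, 0.18 and 0.15. F11R ranged from 231.6 to 316.8 CPM, with estimates of 0.15, 0.15 and 0.13. TJP1 ranged from 407.4 to 534.4 CPM, with estimates of 0.08, 0.10 and 0.13, and its 3 libraries of 3.5 h were 480.6, 477.8 and 478.3 CPM. CLDN7 ranged from 211 to 254.8 CPM, with estimates of 0.08, 0.11 and 0.11. For these 4 genes the later and the 0 h libraries overlapped at every time.

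The adherens and adhesion transcripts gave the same picture. CTNNB1 ranged from 799.7 to 992.1 CPM, and its estimates of -0.04, 0.06 and -0.04 had 95% intervals that lay between -0.25 and 0.27 at all 3 times. CDH1 had estimates of 0.09, 0.09 and 0.06 and was higher than its 0 h partner in 8 of 9 later libraries. EPCAM had -0.16 ± 0.28, 0.06 ± 0.28 and 0.00 ± 0.28, and CLDN1 -0.17 ± 0.24, -0.11 ± 0.24 and -0.07 ± 0.24. The wide errors of EPCAM and CLDN1 shrank to 0.12 with the number as a block, and none of the 10 genes was called there either, at any time or among the times (background 0.0166%).

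**Figure D3:**
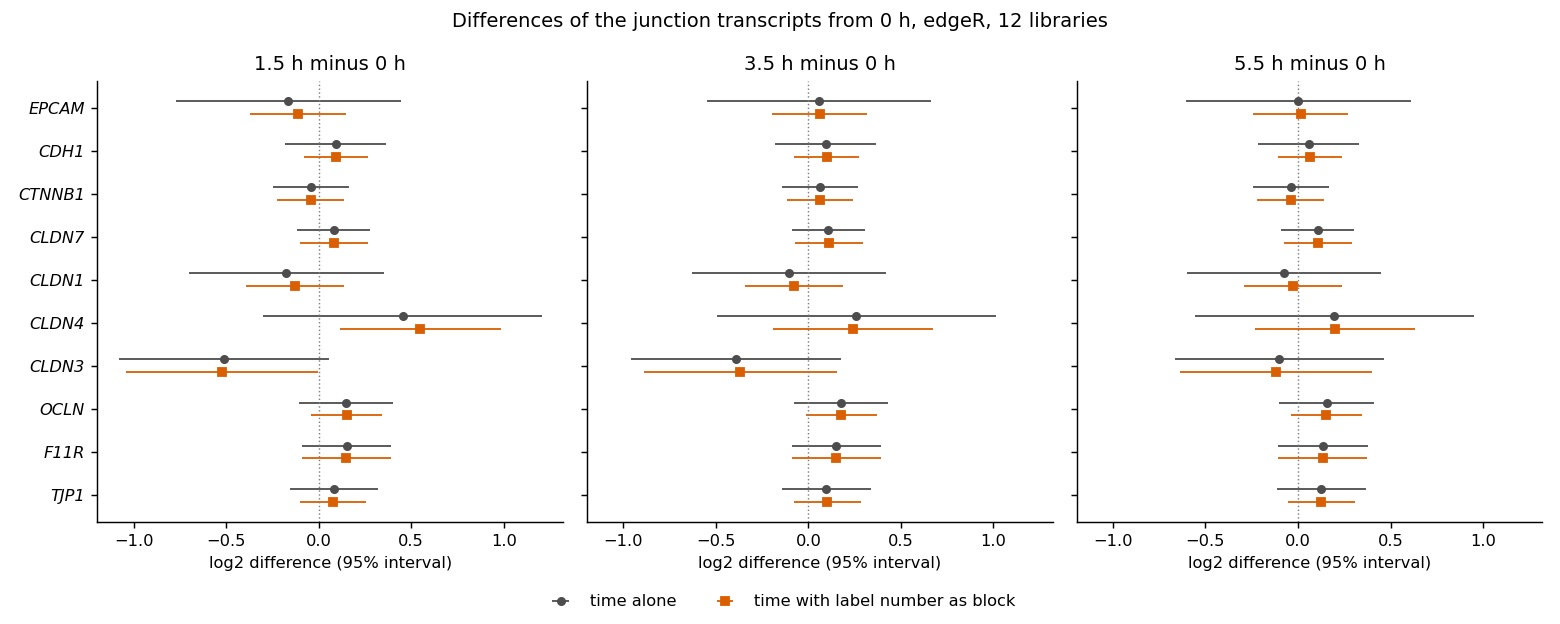
Points are log2 differences of 1.5, 3.5 and 5.5 h from 0 h for the 10 genes, with 95% intervals, from edgeR models of time alone (circles) and of time with the label number as a block (squares). The intervals cross 0 except for CLDN4 and CLDN3 at 1.5 h under the block, where they run from 0.11 to 0.98 and just below 0.

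Genes around the junction were also not called at any time in the edgeR fit of time alone. The 9 lists held other membrane proteins of tight junctions, plaque and polarity proteins, adherens junction proteins, desmosome proteins, partners of EPCAM, epithelial regulators, transcription factors that repress junction genes, the beta-catenin destruction complex and targets of beta-catenin. None of their genes passed in edgeR with all 12 libraries, and DESeq2 without the block called none of those named here. In other settings DKK1, given below without a test, was called in 2 of 21 at 3.5 h and in 1 of 21 at 5.5 h. At an unadjusted p under 0.05 stood MAGI3, a junction scaffold, with 0.32 ± 0.12 at both 1.5 and 5.5 h, and KLF4, an epithelial transcription factor, with 0.47 ± 0.18 at 1.5 h and 0.48 ± 0.18 at 3.5 h. CD44, a hyaluronan receptor, had 0.36 ± 0.16 at 5.5 h. DKK1, a secreted Wnt inhibitor and itself a target of beta-catenin, had 17.8, 10.9 and 6.34 CPM at 0 h in numbers 1, 2 and 3. Its levels were 5.81, 6.69 and 11.4 CPM at 1.5 h, 4.32, 4.62 and 3.88 CPM at 3.5 h, and 4.51, 4.90 and 4.94 CPM at 5.5 h. All libraries of 3.5 and 5.5 h lay below all 3 of 0 h, a separation that 6.76% and 6.92% of all tested genes showed. DKK1 averaged 1.265 FPKM over the 12 libraries, close to the filter of 1 FPKM. It thus passed the filter through the earlier times, where it was higher, and its levels are given without a test.

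The second comparison set libraries of different label numbers side by side, with time in the model. Libraries of the same number deviated together over all genes, and whether a number marks a donor, a culture or a day cannot be told apart. Of the 10 genes, 4 differed among the 3 numbers (EPCAM, CLDN1, CLDN4 and CDH1), a share close to the 35.5% of all tested genes that did so. Number 3 stood apart: it had more EPCAM, CLDN1 and CDH1 than number 1, more EPCAM and CLDN1 than number 2, and less CLDN4 than number 2. The number accounted for 82.5% of the variance of log2 CPM in EPCAM, 78% in CLDN1, 67% in CDH1 and 60.3% in CLDN4. These are the genes called for the number in the same data, so high shares follow from the calls and add no support. The share was 47.6% in TJP1, 40.6% in OCLN, 20.9% in CLDN3, 12.7% in CTNNB1, 12.1% in CLDN7 and 0.603% in F11R. The median over all tested genes was 45.9%. In CLDN3 time accounted for 46.2%, against a median of 17.2%.

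EPCAM in number 3 libraries was 1064, 756, 1099 and 1023 CPM at 0, 1.5, 3.5 and 5.5 h. Number 2 libraries had 653, 677, 669 and 631 CPM and number 1 libraries 597, 631, 641 and 663 CPM at these times. All 4 number 3 libraries lay above all 8 others, and numbers 2 and 1 overlapped. Such a separation without overlap was seen for 24.9% of all tested genes between numbers 3 and 1 and for 27.3% between numbers 3 and 2. The means were 985.6 ± 155.9 CPM in number 3, 657.4 ± 20.4 in number 2 and 633.3 ± 27.5 in number 1 (SD, n = 4 each). The difference of number 3 was 0.63 ± 0.10 (log2 ± SE) from number 1 (adjusted p = 0.0031) and 0.57 ± 0.10 from number 2 (adjusted p = 0.00307, edgeR, both 4 of 4 times higher). Both calls stood in all 12 fits that left out 1 library, and without the number 3 library of 1.5 h the differences were 0.75 and 0.70.

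CLDN1 showed the same order of libraries. At 0, 1.5, 3.5 and 5.5 h it stood at 282, 200.5, 232 and 215 CPM in number 3. The values were 149, 171, 162 and 176 CPM in number 2 and 163, 155, 158 and 174 CPM in number 1. Number 3 was again above all 8 other libraries, and numbers 2 and 1 overlapped. Its mean was 232.4 ± 35.8 CPM, against 164.5 ± 11.9 in number 2 and 162.3 ± 8.42 in number 1 (SD, n = 4 each). CLDN1 was higher in number 3 by 0.51 ± 0.10 than in number 1 (adjusted p = 0.00728) and by 0.49 ± 0.10 than in number 2 (adjusted p = 0.00672, edgeR), in 4 of 4 times and in all 12 leave-one-out fits. Across the 12 libraries, log2 CPM of EPCAM and CLDN1 had a Pearson r of 0.911, a description of libraries that share their numbers.

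CLDN4 went the other way. From the values given above, number 3 libraries averaged 68.2 ± 26.9 CPM, number 2 libraries 115.8 ± 12.5 CPM and number 1 libraries 85.5 ± 8.67 CPM (SD, n = 4 each). The number 3 libraries of 0, 3.5 and 5.5 h, at 49.1 to 61.4 CPM, lay below all 8 libraries of the other numbers, and that of 1.5 h, at 107.9 CPM, lay among them. CLDN4 was lower in number 3 than in number 2 by -0.82 ± 0.17 (log2, adjusted p = 0.00633, edgeR), in 4 of 4 times. Its difference from number 1 was -0.37 ± 0.17 and missed the threshold (adjusted p = 0.121), but it was called without the number 2 library of 1.5 h (-0.39, adjusted p = 0.0471) and without the number 3 library of 1.5 h (-0.62, adjusted p = 0.000646). Between numbers 2 and 1 all 4 libraries of number 2 were above all 4 of number 1, as in 15.9% of all tested genes, with a difference of 0.45 ± 0.17 (adjusted p = 0.217, edgeR). None of the 10 genes was called between numbers 2 and 1, where CLDN4 alone had an unadjusted p under 0.05 and DESeq2 called none of them either. The background of that comparison was 0.200%.

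The ratio of CLDN1 to CLDN4 followed from both. In FPKM it was 4.58, 1.48, 3.39 and 2.78 in number 3 at these times, against 0.987 to 1.73 in the 8 libraries of numbers 2 and 1. The number 3 libraries of 0, 3.5 and 5.5 h were outside the range of the others and that of 1.5 h was inside it.

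CDH1 differed by less. Number 3 libraries had 1449, 1530, 1454 and 1356 CPM at 0, 1.5, 3.5 and 5.5 h. Number 2 libraries had 1227, 1324, 1306 and 1271 CPM, and number 1 libraries 1123, 1194, 1293 and 1323 CPM. Number 3 was above all others, by a margin of 1356 against at most 1324 CPM. CDH1 was higher in number 3 than in number 1 by 0.23 ± 0.07 (adjusted p = 0.029, edgeR, background of this comparison 30.4%), while the difference from number 2, 0.18 ± 0.07, had an adjusted p of 0.0691 (background 34.5%). The call against number 1 was lost without the number 1 library of 0 h (adjusted p = 0.0963), 1.5 h (0.0790) or 3.5 h (0.0698), without the number 3 library of 0 h (0.0848) or 3.5 h (0.0668), and without the number 2 library of 3.5 h (0.0503). The call among the 3 numbers was likewise lost in 10 of the 12 fits that left out 1 library (adjusted p = 0.0584 to 0.145).

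OCLN and TJP1 lay higher in number 3 without passing. OCLN averaged 107.2 ± 8.97 CPM in number 3, 102.6 ± 9.65 in number 2 and 93.1 ± 5.92 in number 1, and its 4 number 3 libraries were above all 4 of number 1 (0.21, adjusted p = 0.0611, edgeR). Without the number 3 library of 1.5 h the OCLN difference was 0.27 and was called (adjusted p = 0.00746), as it was without the number 2 library of 1.5 h (0.20, adjusted p = 0.0464). TJP1 averaged 504.4 ± 28.0 CPM in number 3, 466 ± 24.9 in number 2 and 445.8 ± 33.0 in number 1 (0.18 against number 1, adjusted p = 0.0775, edgeR). CLDN3, CLDN7, F11R and CTNNB1 overlapped between all numbers. By the standard deviation of log2 CPM over the 12 libraries, CTNNB1 stood at percentile 2.64 of all tested genes, CLDN7 at 3.28, TJP1 at 9.5, CDH1 at 14, F11R at 14.1 and OCLN at 18.5, and the other 4 genes stood above 60.

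**Figure D4:**
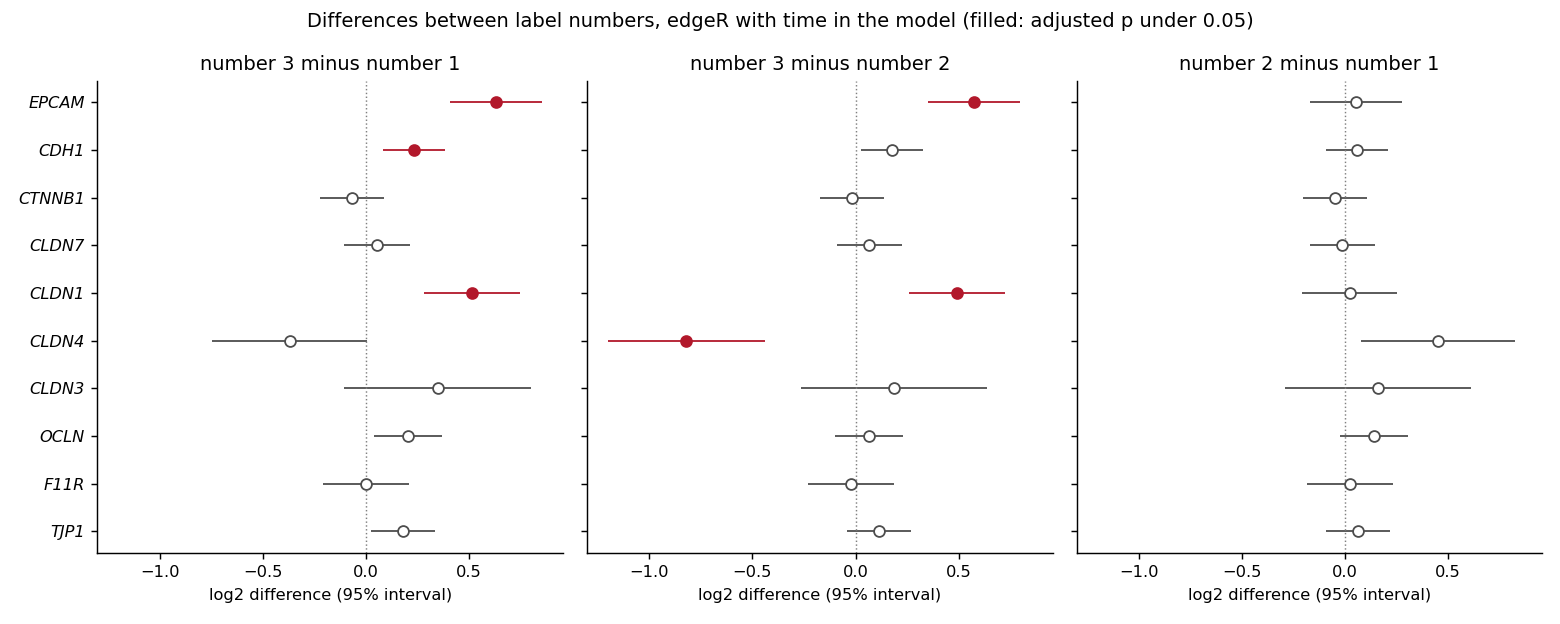
Points are log2 differences between label numbers for the 10 genes with 95% intervals, from edgeR with time in the model, and filled points have an adjusted p under 0.05. EPCAM and CLDN1 are filled and positive for number 3 against both other numbers, CLDN4 is filled and negative (-0.82) against number 2, and no point is filled for number 2 against number 1.

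The number 3 library of 1.5 h differed from the other number 3 libraries, in more than 1 manner. Its EPCAM (756 CPM) lay below the other number 3 libraries (1023 to 1099 CPM) and above the 8 libraries of numbers 2 and 1 (597 to 677 CPM), and its CLDN4 lay within the range of those 8. Its CDH1 (1530 CPM) and TJP1 (534.4 CPM) were the highest of the 12 libraries and its CTNNB1 (799.7 CPM) the lowest. ZEB1, a repressor of E-cadherin transcription, was at 15.3 CPM in it, against 2.99 to 4.22 CPM in the other number 3 libraries and 12.9 to 21.3 CPM in numbers 2 and 1. LGR5, a receptor in Wnt signalling, was at 2.39 CPM, against 14.1 to 26.3 CPM and 1.42 to 4.04 CPM in the same 2 sets. Levels of markers of other cells also differed in this library. The summed fibroblast markers were 59700 CPM in this library, 31370 to 36050 CPM in the other number 3 libraries and 54400 to 67520 CPM in numbers 2 and 1. Without FN1 the fibroblast sums were 2279 CPM, 1180 to 1481 CPM and 2068 to 2802 CPM in that order. Without FN1 and VIM the fibroblast sums were 138.5 CPM, 16.8 to 32.0 CPM and 76.2 to 93.2 CPM in that order. Smooth muscle markers summed to 2450 CPM, 427 to 777 CPM and 1199 to 2069 CPM, and endothelial markers to 67.6 CPM, 100.2 to 111.6 CPM and 150 to 221.7 CPM. The fibroblast sum without FN1 and VIM and the smooth muscle sum were thus the highest of the 12 libraries, and the endothelial sum the lowest. Among the smooth muscle genes TAGLN ran from 182 to 1748 CPM, MYL9 from 231 to 541 CPM and CNN1 from 3.05 to 117 CPM, while DES was at most 0.19 CPM in any library. In edgeR 4 of 7 tested fibroblast markers were lower in number 3 than in number 1 and 3 of 7 lower than in number 2, where 15.2% and 17.1% of all tested genes were called lower, and none was higher. Under the alternatives 1 to 7 fibroblast markers were called against number 1 and 2 to 7 against number 2. Against number 1 VIM was called in all 12 leave-one-out fits, COL1A2 and FN1 in 6 and COL1A1 in 4. Both tested endothelial markers were lower against both numbers. Against number 1 VWF was called in all 12 leave-one-out fits and CDH5 in 8. Over all genes the calls among the numbers came to 5796 without the number 3 library of 1.5 h, against 4265 with it. The part of the fibroblast, smooth muscle and endothelial markers in the EPCAM, CLDN1, CLDN4 and CDH1 differences was not tested. General epithelial markers summed to 16080 to 17220 CPM in number 3, 12590 to 13370 CPM in number 2 and 14640 to 17240 CPM in number 1. Of these markers 4 of 7 tested differed among the numbers (3 to 5 under the alternatives, background 35.5%). KRT18 and KRT8 were higher in number 3 than in number 2, by 1.11 and 0.59. CD24 and KRT7 were lower, by -0.82 and -0.34, and the KRT7 call stood in 3 of 12 leave-one-out fits. Of all tested genes 17.4% were higher and 17.1% lower than in number 2.

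The lists of other genes are described next, for those of their genes that passed the filter on low values. Counts of calls in them are to be read beside the 35.5% of all tested genes called among the numbers. Among other membrane proteins of tight junctions, 4 of 12 tested genes differed among the numbers in edgeR (1 to 5 under the alternatives), close to that background. CLDN10, given below without a test, is among these 4. CLDN10, a channel-forming claudin, was at 0.264, 0.152, 0.559 and 0.422 CPM in number 3 at 0, 1.5, 3.5 and 5.5 h. It was at 2.62, 4.92, 3.76 and 4.02 CPM in number 2 and at 1.09, 3.41, 3.20 and 3.31 CPM in number 1. All number 3 libraries lay below all others. CLDN10 passed the filter only through numbers 2 and 1, with a mean of 0.458 FPKM in number 3 against 5.08 in number 2 and 3.64 in number 1, and its levels are therefore given without a test. LSR, an angulin of tricellular junctions, was lower in number 3 by -0.31 ± 0.07 and -0.35 ± 0.07, and JAM3 by -1.89 ± 0.44 and -1.91 ± 0.44, than in numbers 1 and 2. Among the numbers LSR was called in all 12 leave-one-out fits and JAM3 in 11. JAM3 averaged 1.09 FPKM in number 3, close to the filter, with 2.40 FPKM at 1.5 h and 0.290 to 1.16 FPKM in the other number 3 libraries. That mean rested on the 1.5 h library, and the differences of JAM3 are to be read with this limit. ILDR1, another angulin, was higher in number 3 than in number 1 by 0.62 ± 0.17, and among the 3 numbers it was called in only 2 of the 12 leave-one-out fits.

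In the plaque and polarity list 10 of 24 tested genes differed among the numbers, in both directions (8 to 14 under the alternatives). AMOT, a binding partner of polarity proteins, was higher in number 3 than in number 1 by 0.58 ± 0.09 (adjusted p = 0.0031), and MPDZ, a scaffold with many PDZ domains, by 0.49 ± 0.09. CGNL1, which encodes paracingulin, was lower by -1.07 ± 0.30 than in number 1 and by -1.71 ± 0.30 than in number 2. YBX3, a partner of ZO-1, was higher than in number 2 by 0.41 ± 0.08 and differed from number 1 by 0.12 ± 0.07 (adjusted p = 0.228, edgeR). The calls of AMOT, MPDZ, CGNL1 and YBX3 among the numbers stood in all 12 leave-one-out fits. CGNL1 averaged 1.01 FPKM in number 3, close to the filter, with 8.31 CPM at 1.5 h and 2.38 to 3.54 CPM in the other number 3 libraries. That mean rested on the 1.5 h library, and the differences of CGNL1 are to be read with this limit.

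Of the other adherens junction genes 6 of 18 differed among the numbers, near the background of 35.5%, with 2 to 11 under the alternatives. CDH6, a cadherin, averaged 86.0 ± 36.6 CPM in number 3, 290.2 ± 4.22 in number 2 and 219.5 ± 36.8 in number 1, lower by -1.40 ± 0.22 than in number 1 and -1.81 ± 0.22 than in number 2 (adjusted p = 0.00278 and 0.000696, edgeR). CDH2, which encodes N-cadherin, averaged 30.4 ± 17.4, 55.8 ± 3.32 and 46.2 ± 3.75 CPM in numbers 3, 2 and 1. It was called against number 2 (-0.98 ± 0.25), and its call among the numbers stood in 4 of 12 leave-one-out fits. CDH11, a cadherin of mesenchymal cells, was lower by -0.85 ± 0.19 and -0.70 ± 0.19 than in numbers 1 and 2. LIMA1, which links the catenins to actin, was lower than in number 2 alone, by -0.28 ± 0.08, with 0.08 ± 0.08 against number 1. Among the numbers CDH6 was called in all 12 leave-one-out fits, LIMA1 in 11 and CDH11 in 9. Against number 2, the calls of CDH2, LIMA1 and CDH11 stood in 10, 8 and 7 of them.

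Of the desmosome genes 6 of 9 tested differed among the numbers (4 to 8 under the alternatives, background 35.5%). In number 3, 4 were higher and none lower than in number 1, and 3 were higher and 1 was lower than in number 2. Of all tested genes 15.2% were higher than in number 1, and 17.4% were higher and 17.1% lower than in number 2. DSP, which encodes desmoplakin, was at 335, 169, 284 and 260 CPM in number 3 at 0, 1.5, 3.5 and 5.5 h, against 136 to 158 CPM in number 2 and 139 to 170 CPM in number 1. The 1.5 h library of number 3 lay inside the range of number 1 and the other 3 lay above every other library. The differences were 0.71 ± 0.12 from number 1 and 0.82 ± 0.12 from number 2 (adjusted p = 0.00413 and 0.00169, edgeR). PKP4, of the plakophilin family, was higher by 0.49 ± 0.07 and 0.35 ± 0.07, while PKP2 and DSG2 passed against number 1 alone (0.38 ± 0.07 and 0.32 ± 0.07). Among the numbers DSG2 was called in 10 of the 12 leave-one-out fits, and DSP, PKP4 and PKP2 in all. The gene lower than in number 2 was DSC3, a desmosomal cadherin named after its values were seen, with -1.85 ± 0.53 (adjusted p = 0.0234, edgeR), a call that stood in 6 of 12 leave-one-out fits. It was at 3.64, 30.5, 3.30 and 7.07 CPM in number 3 at 0, 1.5, 3.5 and 5.5 h, against 26.5 to 33.0 CPM in number 2 and 13.5 to 17.2 CPM in number 1. The 1.5 h library of number 3 lay within the range of number 2, and the other 3 lay below every other library.

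Of 6 tested partners of EPCAM 3 differed among the numbers, in both directions (0 to 4 under the alternatives, background 35.5%). None was called among the numbers without the number 3 library of 3.5 h. CD9, a tetraspanin that associates with EPCAM, was higher in number 3 by 0.45 ± 0.10 and 0.38 ± 0.10 than in numbers 1 and 2. ST14, the protease matriptase that cleaves EPCAM, was lower by -0.40 ± 0.08 and -0.28 ± 0.08. The calls of CD9 and ST14 among the numbers stood in 9 and 10 of 12 leave-one-out fits.

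Of 5 tested transcription factors that repress CDH1 and other junction genes, 3 differed among the numbers (1 to 5 under the alternatives, background 35.5%). In number 3, 3 were lower than in number 1 and 3 lower than in number 2, where 15.2% and 17.1% of all tested genes were lower, and none was higher. TCF4, given below without a test, is counted among the numbers and against number 2, where the others are SNAI2 and ZEB1. SNAI2 was at 4.47, 3.40, 3.41 and 3.68 CPM in number 3 at 0, 1.5, 3.5 and 5.5 h. It was at 9.70, 6.94, 6.49 and 9.22 CPM in number 2 and at 9.57, 8.18, 9.58 and 10.8 CPM in number 1. All 4 number 3 libraries, that of 1.5 h included, lay below all 8 others (-1.35 ± 0.13 against number 1 and -1.10 ± 0.13 against number 2, adjusted p = 0.000508 and 0.000638, edgeR). ZEB1 was lower by -1.34 ± 0.40 and -1.75 ± 0.41, without the separation, since its 1.5 h library of number 3 was at 15.3 CPM, and its call among the numbers stood in 7 of 12 leave-one-out fits. ZEB1 averaged 1.13 FPKM in number 3, close to the filter of 1 FPKM. That mean rested on the 1.5 h library, and no difference without it is given. TCF4 was at 1.43 to 3.69 CPM in number 3, 3.39 to 5.35 CPM in number 2 and 2.76 to 3.70 CPM in number 1, and is given without a test because it passed the filter through numbers 2 and 1 (0.814 FPKM in number 3). Of the epithelial regulators 2 of 10 differed (1 to 7 under the alternatives). These 2 include GRHL3, which is given below without a test. ESRP1, a splicing regulator of epithelia, was higher by 0.47 ± 0.09 and 0.45 ± 0.10 (adjusted p = 0.00729 and 0.00685, edgeR), and its call among the numbers stood in all 12 leave-one-out fits, as did that of SNAI2. GRHL3, with a mean of 0.956 FPKM in number 1, is given without a test for the same reason, at 1.71 to 2.97 CPM in number 3, 3.44 to 4.85 CPM in number 2 and 1.58 to 3.03 CPM in number 1.

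Beta-catenin itself was not called between numbers, with 898.8 ± 88.3 CPM in number 3, 907.5 ± 18.9 in number 2 and 939.1 ± 24.1 in number 1 (SD, n = 4 each). Of the destruction complex and its partners 2 of 14 differed, BCL9, a coactivator of beta-catenin, with 0.48 ± 0.06 and 0.28 ± 0.06, and APC2 with -0.48 ± 0.11 and -0.62 ± 0.11 against numbers 1 and 2. Both were called among the numbers in all 12 leave-one-out fits, as was MYC. Of the target genes 3 of 5 differed, a count that includes LGR5, given below without a test. MYC was at 181, 142, 210.3 and 171 CPM in number 3, against 93.2 to 102.5 CPM in number 2 and 113 to 133 CPM in number 1, without overlap (0.47 ± 0.09 against number 1 and 0.82 ± 0.10 against number 2). LGR5 had its high values, given above, in the 3 libraries of number 3 other than that of 1.5 h. It passed the filter only through number 3, with a mean of 5.96 FPKM there against 0.698 in number 2 and 0.981 in number 1, and no test is given. CCND1 was higher than in number 2 by 0.40 ± 0.11 and differed from number 1 by -0.10 ± 0.11, and its calls among the numbers and against number 2 stood in 10 and 8 of 12 leave-one-out fits.

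**Figure D5:**
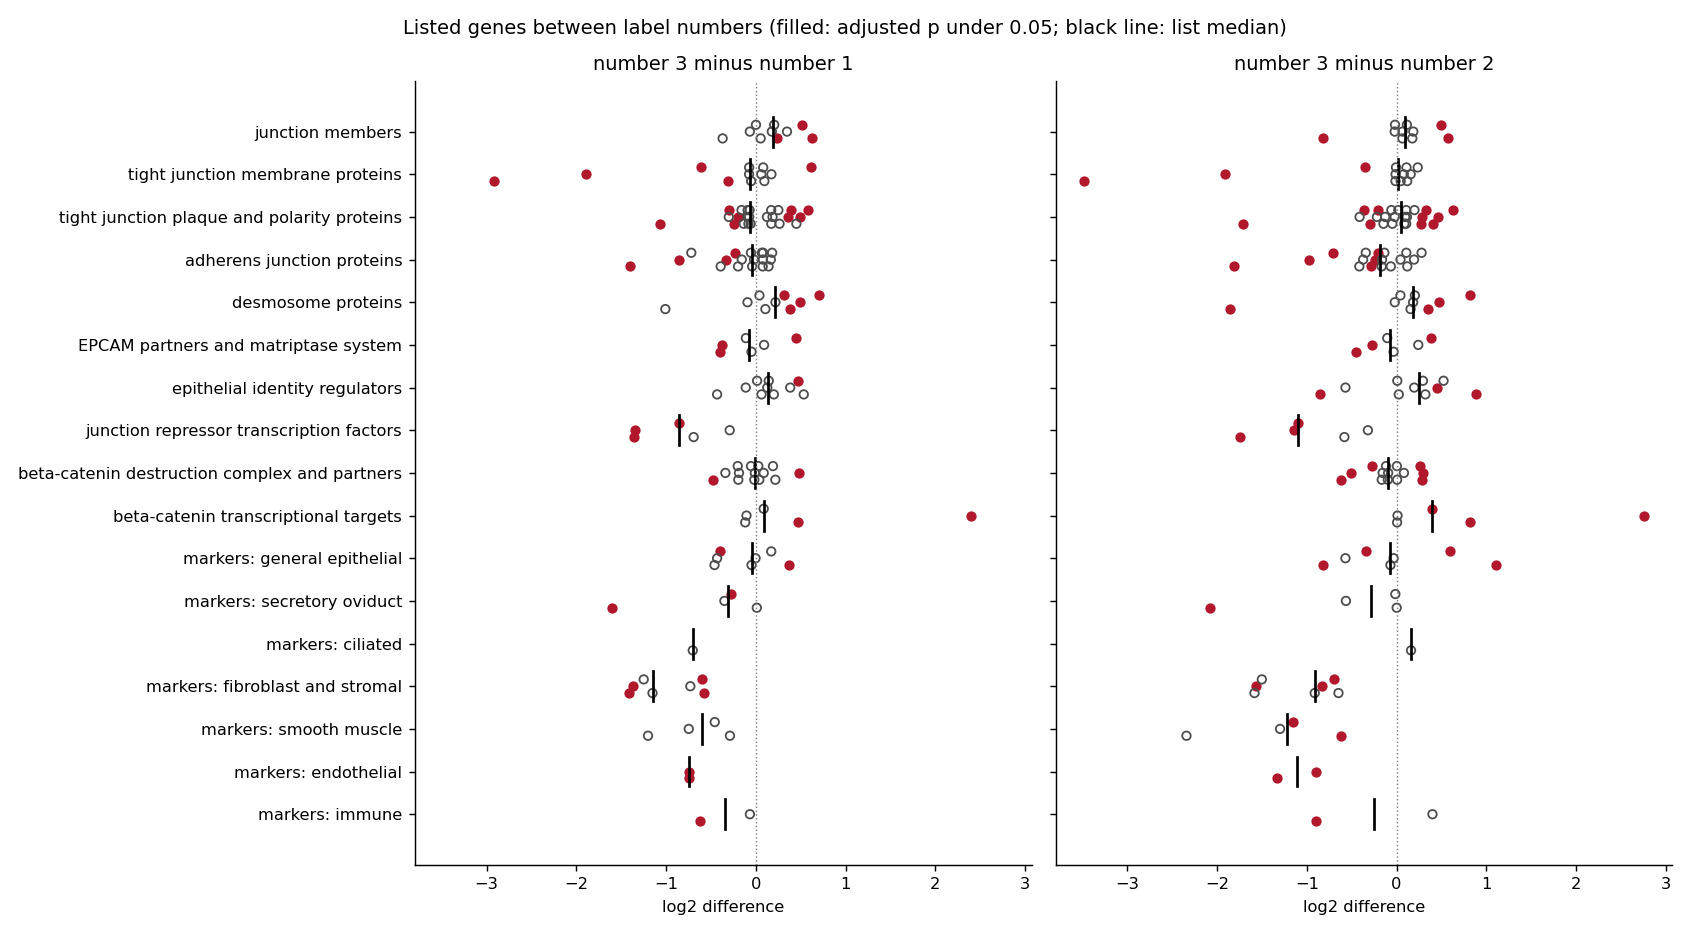
Each point is a tested gene of 1 list and gives its log2 difference between label numbers (horizontal axis), filled where the adjusted p in edgeR is under 0.05, with a black line at the list's median. The desmosome row has medians of 0.22 for number 3 against number 1 and 0.18 against number 2, beside -0.01 over all tested genes in both. The repressor row has medians of -0.86 and -1.10, which count TCF4 and are therefore not set against all genes. The fibroblast row has -1.15 and -0.91, the smooth muscle row -0.60 and -1.225, the endothelial row -0.74 and -1.11, and the general epithelial row -0.05 and -0.07. Points of CLDN10, TCF4, GRHL3 and LGR5 are included, though no test of them is given in the text.

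By the Pearson r of log2 CPM over the 12 libraries, a description of libraries that share numbers and depth, each gene had different nearest transcripts. EPCAM lay nearest to CCDC47 (r = 0.993) and UBA2 (0.980), CLDN1 to GPT2 (0.966) and ACER3 (0.956), and CLDN4 to IGFBP2 (0.965), PDE1C (0.965) and SH3RF2 (0.964). TJP1 lay nearest to MTFR1 (0.970), CDH1 to PDCD11 (0.928) and OCLN to FAF2 (0.922), with the desmosomal PKP2 among its nearest 3 (0.902). F11R lay nearest to RF02168 (0.904). CLDN3 (MARK1, 0.871), CLDN7 (ACAA1, 0.864) and CTNNB1 (a gene without a symbol, 0.882) had no partner above 0.9. Within the 10 genes the next strongest values after EPCAM with CLDN1 were 0.80 for CDH1 with TJP1, -0.792 for EPCAM with CLDN4 and -0.759 for CLDN1 with CLDN4.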

How the data were processed

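The members, the gene lists and the tests were chosen with earlier results of these data known. Raw counts and FPKM values (fragments scaled by transcript length and by library size) stand side by side in the table of genes that the authors deposited, 1 column of each per library, together with gene positions. Their deposited comparisons hold the log2 of each time's mean FPKM over that of 0 h, and a p-value and q-value from an unstated test, per the file headers. Per the submitters' processing notes, TopHat2 2.0.9 and Cufflinks were used, without a role for either. For the counting tool, strand use and the genome build nothing is given in the sources used here. Another 54 per-sample columns were not used. Transcript lengths and exon numbers are those of the authors' transcript table. Of 4788 genes without a symbol, 1145 were named from a RefSeq table.

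Counts were scaled by TMM (factors 0.975 to 1.02) and tested with edgeR 4.0.16 (limma 3.58.1, R 4.3.3). The test was the quasi-likelihood F test over all 12 libraries on those 12025 genes whose FPKM averaged 1 or more. Benjamini-Hochberg adjustment ran over all of them, and an adjusted p under 0.05 was called. Times were tested in a model of time alone, and numbers in a model of time and number. Alternatives were the number as a replicate block, RLE scaling, no filter, a filter at 5 FPKM, DESeq2 1.42.0, limma on log2(FPKM + 1) and log2(FPKM + 0.1), and leaving out each library. The number pairs the libraries: deviations from the time means correlated at 0.218 to 0.705 over all 18 pairs of the same number, and at -0.600 to 0.331 over 36 pairs of different numbers. CPM values are counts over the TMM-scaled library size. No 2 libraries were identical. The tests were checked on simulated counts.

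All 10 members were named. From each list the called genes, up to 4 by smallest p, were named, or the 2 with the smallest p where none was called, and for likeness the nearest genes. A listed gene is not reported here. CLDN6, other family members and single markers were chosen after their values were seen. The precision rests on 48490974 to 79387070 counts per library.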

Additional observations from a re-analysis of the deposited data

Results flagged for a closer look

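Of 30 groups of 4 libraries that share a number, 3 held 1 library set apart from the other 3 by a gap that took up most of the group's range. CLDN7 in the number 3 library of 1.5 h was at 229.7 CPM, below the other number 3 libraries at 244.7 to 245.4 CPM. TJP1 in the number 2 library of 0 h was at 428.7 CPM, below the other number 2 libraries. F11R in the number 1 library of 0 h was at 257.5 CPM, below the other number 1 libraries. Chance alone sets a library apart in about 1 in 20 such groups.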

How the results depend on the processing

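None of the 10 genes was called at any time under any alternative. Calls over all genes against 0 h were 0 at each time and under other settings became, at 1.5, 3.5 and 5.5 h, 1, 6 and 7 with DESeq2 and 96, 34 and 32 with DESeq2 and the replicate block. With the replicate block in edgeR 1 gene was called at 1.5 h and 2 among the times, and no call on the 10 genes changed. Settings chosen after seeing the data were the block without the number 3 library of 1.5 h (4 genes at 1.5 h, 12 at 5.5 h, 3 among times) and the block over numbers 1 and 2 only (22, 28 and 71 genes, 18 among times). DESeq2 called 6 genes among the times, and 76 with the block. Leaving out 1 library gave 0 to 1 at 1.5 h, 0 to 1 at 5.5 h and 0 to 2 among times. Calls between numbers 2 and 1 (24) became 574 with DESeq2, 7 with limma at a pseudocount of 1 and 0 at 0.1, and 0 to 475 without 1 library. Leaving out 1 library gave 1682 to 5105 calls for number 3 against 1 (3651), 2456 to 5429 against 2 (4148) and 2066 to 5796 among the numbers (4265), the highest each time without the number 3 library of 1.5 h. Of the 10 genes, 5 were called for number 3 against 1 with DESeq2 (also OCLN, adjusted p = 0.0477, and TJP1, 0.0442), 2 to 5 without 1 library, and 0 to 1 for number 2 against 1. CDH1 among the numbers missed the threshold with no filter (0.0510), at 5 FPKM (0.0719) and with limma at 0.1 (0.0542). CLDN3 has no value at 5 FPKM.

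Directions reversed only for differences that were not called. EPCAM at 5.5 h was -0.00231 with RLE scaling and DESeq2 and -0.0038 at 5 FPKM, and F11R in number 3 against 1 was -0.0223 at 5 FPKM. In the block without the number 3 library of 1.5 h, CTNNB1 and EPCAM at 1.5 h were 0.036 and 0.051. Over numbers 1 and 2 only, CLDN1 was 0.07006, 0.03999 and 0.167 at the 3 times, CTNNB1 0.063 at 1.5 h and 0.023 at 5.5 h, and EPCAM 0.073 at 1.5 h. Without 1 library, at 1.5, 3.5 and 5.5 h, EPCAM ran from -0.3205 to 0.1371, -0.2353 to 0.3613 and -0.2557 to 0.3017, and CLDN1 from -0.3434 to 0.1695, -0.3064 to 0.2402 and -0.2431 to 0.2685. CDH1 ran from -0.008021 to 0.1982 at 1.5 h and -0.0261 to 0.1619 at 5.5 h, CLDN4 from -0.09335 to 0.5321 at 3.5 h and -0.1143 to 0.4693 at 5.5 h, and CLDN3 from -0.3164 to 0.07985 at 5.5 h. At 1.5 h TJP1 ran from -0.01549 to 0.1781 and CTNNB1 from -0.09168 to 0.02992. For number 2 against 1, EPCAM ran from -0.0232 to 0.1076, CLDN1 from -0.04464 to 0.1147, CLDN7 from -0.04089 to 0.05319 and F11R from -0.04185 to 0.1099. F11R in number 3 ran from -0.1002 to 0.08129 against 1 and -0.123 to 0.05656 against 2, CTNNB1 from -0.06176 to 0.04345 and OCLN from -0.0005386 to 0.1351 against 2. The cause was not tested. With 3 libraries per time, the 95% intervals of CLDN4, EPCAM and CLDN1 against 0 h are too wide to show small differences.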
